A study of Mus musculus with 9 samples.

Results

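Transcripts of 10 genes of the NF-kB pathway were followed across a mouse colon carcinoma line and its liver metastatic derivatives. The 10 genes were taken by symbol from the 16399 genes listed for each library, and they comprised the Rel family factors Nfkb1, Nfkb2, Rela and Relb, the inhibitor Nfkbia, the feedback regulators Tnfaip3, Birc3 and Traf1, and the adhesion molecules Icam1 and Vcam1. All 10 were listed in every library, and 9 of them reached 1 TPM (a level scaled for transcript length and for the library's total) in at least 3 libraries and were tested. Icam1 did not reach that level and was not tested.

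MC38-P is the parental line, MC38 cells labelled with GFP and luciferase. MC38-LM3a and MC38-LM3b are third-generation liver derivatives of it, obtained independently of each other. Their cells went through 3 rounds of growth in the liver of C57BL/6 mice with an intact immune system. Each round began in the spleen and ended in culture. All 3 lines carry that label, and the samples' labels name no treatment. RNA came from cultured cells, with 3 biological replicates of each line and 9 libraries in all, and each derivative is a single selected line. Growth in the liver, selection, reculture and time in culture therefore cannot be told apart in any comparison with MC38-P.

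NF-kB is a family of dimeric transcription factors built from RELA (p65), RELB, c-Rel, and the p50 and p52 products of the Nfkb1 and Nfkb2 precursors. In resting cells the dimers are held in the cytoplasm by inhibitors such as IkBα, the product of Nfkbia, and signals from tumour necrosis factor, interleukin-1 or Toll-like receptors lead to IkBα degradation and nuclear entry. Many targets feed back on the pathway: Nfkbia restores the inhibitor, Tnfaip3 encodes the ubiquitin-editing enzyme A20, Birc3 the ubiquitin ligase cIAP2, and Traf1 an adaptor of tumour necrosis factor receptors. The endothelial adhesion molecules VCAM1 and ICAM1, ligands of leukocyte integrins, are classical targets of the pathway. Activity of the pathway lies largely in the location and modification of the proteins, which transcript levels do not measure.

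RefSeq promoter windows (GRCm38.p6, 250 bases before to 50 bases after an annotated start site) were matched for 7 of the 10 genes, in 10 windows of 300 bases. The NF-kB consensus, a 10-base motif searched on both strands, was present in 5 of these windows, against 4.505% of all 32851 mouse windows and 5.198% of the 11620 windows of tested genes. The windows with a match belonged to Nfkb2, Nfkbia and Tnfaip3, and 1 match was counted in 2 overlapping Nfkb2 windows. The sequences below give 1 window for each of these 3 genes, shown for their matches close to a start site, and the windows of Birc3 and Traf1, shown because these genes changed in both derivatives and held no match. Capitals mark the consensus matches, with overlapping matches joined, and all sequences run 5′ to 3′ along the strand of the gene.
Nfkb2: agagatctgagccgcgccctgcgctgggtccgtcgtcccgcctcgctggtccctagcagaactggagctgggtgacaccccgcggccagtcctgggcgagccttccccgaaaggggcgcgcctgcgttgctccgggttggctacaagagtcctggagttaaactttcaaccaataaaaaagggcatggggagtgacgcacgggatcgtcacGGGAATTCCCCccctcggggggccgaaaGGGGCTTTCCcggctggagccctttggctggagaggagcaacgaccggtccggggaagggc
Nfkbia: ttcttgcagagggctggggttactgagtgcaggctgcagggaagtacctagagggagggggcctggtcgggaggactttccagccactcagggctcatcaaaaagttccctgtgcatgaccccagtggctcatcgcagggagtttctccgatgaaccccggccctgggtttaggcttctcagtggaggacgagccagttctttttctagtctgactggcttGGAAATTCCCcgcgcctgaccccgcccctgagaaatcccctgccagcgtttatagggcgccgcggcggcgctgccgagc
Tnfaip3: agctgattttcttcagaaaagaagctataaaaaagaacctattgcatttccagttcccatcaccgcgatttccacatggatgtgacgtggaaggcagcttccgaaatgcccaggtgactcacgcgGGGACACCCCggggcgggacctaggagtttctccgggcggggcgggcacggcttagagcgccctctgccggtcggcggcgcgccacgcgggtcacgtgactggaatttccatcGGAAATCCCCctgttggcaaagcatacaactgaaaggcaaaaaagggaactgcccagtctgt
Birc3: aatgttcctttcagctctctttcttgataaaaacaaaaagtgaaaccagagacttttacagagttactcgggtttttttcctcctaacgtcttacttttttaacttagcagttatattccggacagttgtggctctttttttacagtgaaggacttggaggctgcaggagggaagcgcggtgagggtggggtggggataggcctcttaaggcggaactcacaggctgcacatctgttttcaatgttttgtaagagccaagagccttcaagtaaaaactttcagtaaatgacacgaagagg
Traf1: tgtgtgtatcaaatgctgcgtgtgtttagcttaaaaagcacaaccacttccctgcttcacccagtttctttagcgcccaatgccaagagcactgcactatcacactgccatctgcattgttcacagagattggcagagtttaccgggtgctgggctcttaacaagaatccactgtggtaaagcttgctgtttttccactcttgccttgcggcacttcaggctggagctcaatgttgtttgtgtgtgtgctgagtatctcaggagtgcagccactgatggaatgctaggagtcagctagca
The Nfkb2 window lay at chr19:46304487-46304786 on the plus strand, and its matches began at positions -39, -38 and -11 from the start site. The Nfkbia window lay at chr12:55492598-55492897 on the minus strand, with its match at -29. In Tnfaip3, at chr10:19015361-19015660 on the minus strand, matches began at -125 and -12. The windows of Birc3, at chr9:7873121-7873420, and Traf1, at chr2:34961723-34962022, lay on the minus strand, and those of Rela and Icam1 also held no match. A match is a string of letters, and its absence refers only to these letters in these windows. A looser form of the motif was present in 9 of the 10 windows, against 50.79% of all windows and 67.59% of those of tested genes.

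Each library summed to 1000000 TPM, and 10875 to 11218 genes reached 1 TPM. The epithelial label was met in part: Krt8 and Epcam were present in all 9 libraries, whereas Cdh1, the epithelial cadherin, did not exceed 0.08 TPM. Both markers were lower in the derivatives, with Krt8 at 1047 to 1206 TPM in MC38-P, 744 to 851 TPM in MC38-LM3a and 747 to 781 TPM in MC38-LM3b, and Epcam at 4.93 to 6.31 TPM, 1.93 to 2.17 TPM and 1.87 to 2.40 TPM. The summed list of 11 epithelial markers was 2004 to 2319 TPM, 1593 to 1812 TPM and 1586 to 1630 TPM in the same order, and most of it was Krt8 and Krt18. Krt19 went the other way in MC38-LM3a, at 136 to 157 TPM against 105 to 122 TPM in MC38-P. So did Krt20, a low gene, at 1.21 to 1.83 TPM against 0.54 to 0.79 TPM. Cdx2, also low, was lower there, at 0.48 to 0.92 TPM against 1.80 to 2.86 TPM. Replicate 3 of MC38-LM3a and replicate 3 of MC38-P differed from the other libraries of their lines along transcript length, in opposite directions. When each library was set against the rest of its line over 11096 genes, the Spearman correlation of the difference with length was 0.64 for MC38-LM3a replicate 3 and -0.62 for MC38-P replicate 3. It was -0.55 and -0.51 for replicates 1 and 2 of MC38-LM3a, 0.51 and 0.41 for those of MC38-P, each set against a pair that includes replicate 3, and between -0.01 and 0.02 in MC38-LM3b. The difference between MC38-LM3b and MC38-LM3a had a correlation of 0.61 with length. The differences of the 9 tested genes were therefore also computed after a correction of every library for GC content and length, and without these 2 libraries. The median log2 difference of all tested genes was 0.00 for MC38-LM3a against MC38-P and 0.21 for MC38-LM3b against MC38-P, so values for MC38-LM3b were also computed after centring each library on its median.

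Against MC38-P, MC38-LM3a had higher levels of Vcam1, Birc3 and Traf1. These 3 of the 9 tested genes passed an adjusted p of 0.05, where 14.1% of all tested genes were called higher, and 0 of the 9 passed as lower, where 13.8% were called lower. MC38-LM3b had higher levels of these 3 and of Nfkb1, Rela and Relb, 6 of the 9 in all, with 35.6% of all tested genes called higher, and 0 of the 9 were lower, with 11.2% called lower. The share called higher was thus itself large in MC38-LM3b. The 9 genes had a median log2 difference of 0.10 for MC38-LM3a, where all tested genes had 0.00, and of 0.37 for MC38-LM3b, where all tested genes had 0.21. Both comparisons share the MC38-P libraries. The libraries were made from bulk cultures, in which a change in the share of cells expressing a gene and a change in RNA per cell cannot be told apart.

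**Figure D1:**
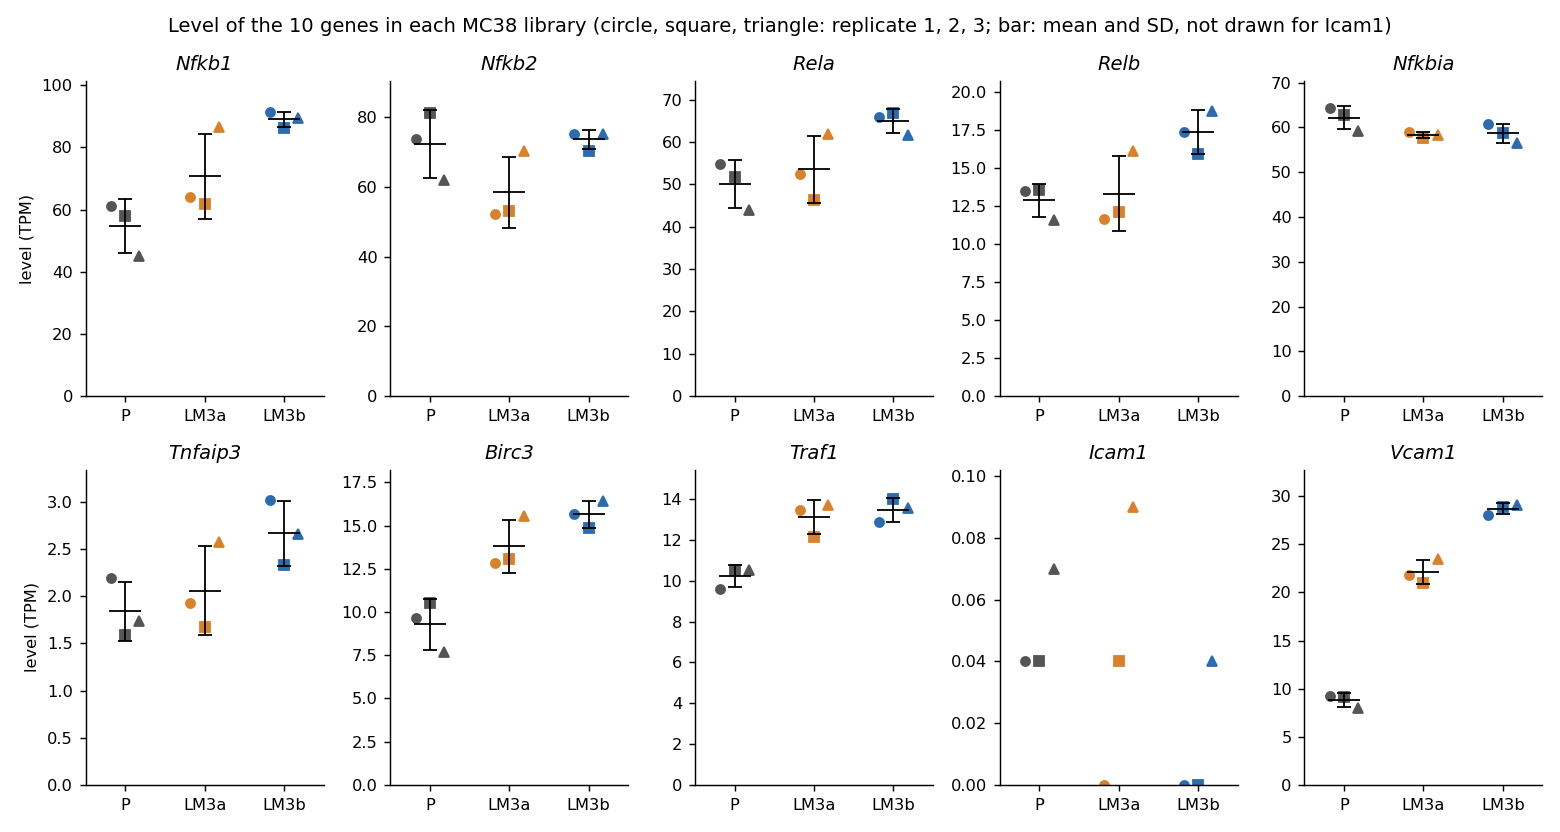
Level in TPM (vertical axis, from 0) of each of the 10 genes in the 9 libraries, by line (P, MC38-P; LM3a, MC38-LM3a; LM3b, MC38-LM3b). Symbols are replicates, and bars are the mean and SD of 3 replicates (not drawn for Icam1); in the Vcam1 panel the 6 derivative libraries lie between 21.0 and 29.1 TPM and the MC38-P libraries between 7.95 and 9.27 TPM.

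Nfkb1, which encodes the p105 precursor of p50, was measured at 61.1, 58.1 and 45.0 TPM in MC38-P, at 64.1, 61.7 and 86.5 TPM in MC38-LM3a, and at 91.3, 86.4 and 89.5 TPM in MC38-LM3b. All 6 derivative libraries lay above the highest MC38-P library, and within MC38-LM3a replicate 3 stood well above the other replicates. In MC38-LM3b the mean was 1.63 times that of MC38-P (log2 difference 0.70, SE 0.14, adjusted p = 0.00232), and Nfkb1 rose. In MC38-LM3a the log2 difference was 0.36 (SE 0.14, adjusted p = 0.0760), short of the threshold. It was 0.36 with an adjusted p of 5.54e-04 after the correction for GC content and length, but 0.08 (adjusted p = 0.177) with neither replicate 3 of MC38-LM3a nor replicate 3 of MC38-P. In MC38-LM3b the difference was 0.47 after the correction (adjusted p = 7.12e-05) and 0.57 without the 2 libraries, and its call held in each of these fits.

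Nfkb2, the precursor of p52 in the non-canonical branch, did not follow Nfkb1. Its levels were 73.8, 81.1 and 61.9 TPM in MC38-P, 52.2, 53.0 and 70.2 TPM in MC38-LM3a, and 75.2, 70.3 and 75.3 TPM in MC38-LM3b. The 3 lines were not separated, except that every MC38-LM3b library lay just above every MC38-LM3a library. The log2 difference from MC38-P was -0.31 in MC38-LM3a (SE 0.12, adjusted p = 0.0945) and 0.03 in MC38-LM3b (SE 0.12, adjusted p = 0.835), and neither passed. After the correction for GC content and length it was -0.24 (adjusted p = 0.00632) and -0.20 (adjusted p = 0.0137), so that Nfkb2 passed as lower in both derivatives and its sign in MC38-LM3b turned. Without replicate 3 of MC38-LM3a, the difference of MC38-LM3a was -0.44 (adjusted p = 0.00410), in a fit that called 23.2% of all genes lower. With replicate 3 of MC38-P also left out it was -0.55 (adjusted p = 2.32e-05), in a fit that called 7111 genes in either direction. Nfkb2 was called lower in MC38-LM3a in 7 of the 20 settings tried.

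Rela and Relb encode the transactivating partners of p50 and p52. Rela was present at 54.9, 51.7 and 43.9 TPM in MC38-P, at 52.4, 46.2 and 61.9 TPM in MC38-LM3a, and at 66.0, 67.0 and 61.6 TPM in MC38-LM3b. Relb was measured at 13.5, 13.5 and 11.6 TPM in MC38-P, at 11.7, 12.1 and 16.1 TPM in MC38-LM3a, and at 17.4, 15.9 and 18.8 TPM in MC38-LM3b. For both genes MC38-LM3b lay above MC38-P without overlap, and MC38-LM3a overlapped MC38-P, with its replicate 3 above every MC38-P library. Rela rose in MC38-LM3b by a log2 difference of 0.37 (SE 0.11, adjusted p = 0.0221) and Relb by 0.41 (SE 0.13, adjusted p = 0.0282). In MC38-LM3a the differences were 0.09 (adjusted p = 0.622) for Rela and 0.03 (adjusted p = 0.881) for Relb. The MC38-LM3b values were smaller on other scales: 0.22 (adjusted p = 0.00925) and 0.20 (adjusted p = 0.0347) after the correction for GC content and length, and 0.15 (adjusted p = 0.0595) and 0.18 (adjusted p = 0.0695) after median centring, where neither passed.

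Within a library, the balance between the 2 precursors was shifted in both derivatives. The ratio of Nfkb1 to Nfkb2 TPM was 0.828, 0.716 and 0.727 in MC38-P, 1.23, 1.16 and 1.23 in MC38-LM3a, and 1.21, 1.23 and 1.19 in MC38-LM3b. Nfkb2 was thus the more abundant in every MC38-P library and Nfkb1 in every derivative library, and the spread between replicates was narrow, also with replicate 3 of MC38-LM3a and of MC38-P. MC38-P had a mean ratio of 0.757 ± 0.0619, MC38-LM3a one of 1.21 ± 0.0379 and MC38-LM3b one of 1.21 ± 0.0200 (SD, n = 3). This ratio was chosen after its values were seen, among 10 ratios between Nfkb1, Nfkb2, Rela, Relb and Nfkbia, and is given as a description, with no test. MC38-P and the derivatives also did not overlap in 5 others of the 10: Nfkb1 to Rela, Nfkb1 to Relb, Nfkb1 to Nfkbia, Nfkb2 to Rela and Nfkb2 to Relb. Each of these contains Nfkb1 or Nfkb2, so they are not separate observations. The share of non-overlapping ratios among other pairs of genes was not computed. The 6 derivative libraries are replicates of 2 lines only. After the correction for GC content and length the ratio lay between 0.732 and 0.843 in MC38-P and between 1.10 and 1.25 in the derivatives. The ratio of Nfkb1 to Rela was 1.03 to 1.12 in MC38-P and 1.22 to 1.45 in the derivatives, and that of Nfkb2 to Rela was 1.34 to 1.57 and 0.996 to 1.22. The ratio of Rela to Relb, at 3.79 to 4.07 and 3.28 to 4.49, overlapped.

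**Figure D2:**
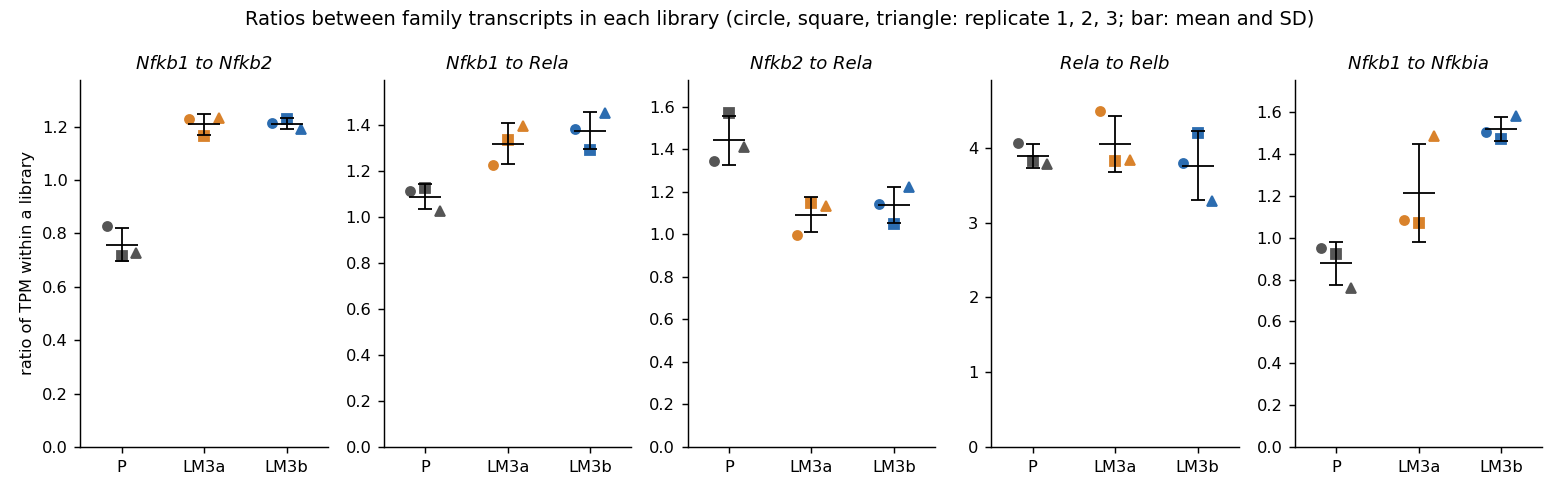
Ratio of the TPM of 2 genes within each library (vertical axis, from 0, no unit), by line, for 5 of the 10 ratios. Symbols are replicates and bars the mean and SD of 3 replicates; Nfkb1 to Nfkb2 lies at 0.716 to 0.828 in MC38-P and at 1.16 to 1.23 in the 6 derivative libraries, whereas Rela to Relb overlaps between the lines.

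Nfkbia, the inhibitor that NF-kB itself induces, varied least in proportion among the 9 tested genes. It was measured at 64.3, 62.8 and 59.3 TPM in MC38-P, at 59.0, 57.6 and 58.2 TPM in MC38-LM3a, and at 60.7, 58.8 and 56.5 TPM in MC38-LM3b. The MC38-LM3a libraries lay just below those of MC38-P, and MC38-LM3b overlapped both. The log2 difference was -0.09 (95% confidence interval -0.24 to 0.05, adjusted p = 0.349) in MC38-LM3a and -0.08 (-0.23 to 0.06, adjusted p = 0.314) in MC38-LM3b. After the correction for GC content and length, the differences were larger, -0.13 (adjusted p = 0.0200) and -0.14 (adjusted p = 0.0121), and passed as lower, and median centring gave -0.31 in MC38-LM3b (adjusted p = 0.00878). Its longest annotated transcript, at 1578 bases, was the shortest of the 10 genes, at the 12.2 percentile of the genes with a length.

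Tnfaip3, which encodes A20, was low in all 3 lines. Its levels were 2.19, 1.59 and 1.74 TPM in MC38-P, 1.93, 1.67 and 2.58 TPM in MC38-LM3a, and 3.02, 2.33 and 2.66 TPM in MC38-LM3b. The MC38-LM3b libraries lay above those of MC38-P, and MC38-LM3a overlapped both. The log2 difference was 0.10 (SE 0.14, adjusted p = 0.654) in MC38-LM3a and 0.37 (SE 0.14, adjusted p = 0.0558) in MC38-LM3b, and neither passed. The MC38-LM3b difference passed in 5 of the 19 other settings tried, where it ranged from 0.08 to 0.52. Among these 5 were the fit without replicate 3 of MC38-LM3a (0.37, adjusted p = 0.0271) and the fit also without replicate 3 of MC38-P (0.35, adjusted p = 0.0399). Tnfaip3 has the longest transcript of the 10 genes, 6199 bases, at the 86.6 percentile, and the MC38-LM3b difference was 0.08 (adjusted p = 0.601) after the correction for GC content and length.

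Birc3, the gene of the ubiquitin ligase cIAP2 that acts downstream of tumour necrosis factor receptors, rose in both derivatives. It was measured at 9.66, 10.5 and 7.68 TPM in MC38-P, at 12.8, 13.0 and 15.6 TPM in MC38-LM3a, and at 15.7, 14.9 and 16.4 TPM in MC38-LM3b. All 6 derivative libraries exceeded all 3 MC38-P libraries. The log2 difference was 0.53 (SE 0.13, adjusted p = 0.00981) in MC38-LM3a and 0.71 (SE 0.13, adjusted p = 0.00142) in MC38-LM3b, where the mean was 1.69 times that of MC38-P. Corrected for GC content and length, the differences were 0.51 (adjusted p = 2.10e-04) and 0.53 (adjusted p = 1.30e-04). Without replicate 3 of MC38-LM3a and of MC38-P, the difference in MC38-LM3a was 0.33, and its call was kept.

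Traf1, an adaptor that binds TRAF2 and the cIAP proteins, was measured at 9.60, 10.5 and 10.5 TPM in MC38-P. In MC38-LM3a the levels were 13.5, 12.2 and 13.7 TPM, and in MC38-LM3b they were 12.9, 14.0 and 13.6 TPM. The derivatives lay above MC38-P without overlap, and overlapped each other. Traf1 rose by 0.33 on the log2 scale in MC38-LM3a (SE 0.10, adjusted p = 0.0271) and by 0.37 in MC38-LM3b (SE 0.10, adjusted p = 0.0108), 1.32 times the mean of MC38-P in the latter. The call in MC38-LM3b was lost after the correction for GC content and length (0.17, adjusted p = 0.121) and after median centring (0.15, adjusted p = 0.255). The call in MC38-LM3a was kept on both scales, at 0.34 (adjusted p = 0.00825) and 0.33 (adjusted p = 0.0257), but in only 13 of the 20 settings tried, and it was lost when any of 5 single libraries was left out and with 2 groups fitted, among others.

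Vcam1, the adhesion receptor for the integrin VLA-4, had the largest difference among the 9 tested genes in both derivatives. Its levels were 9.27, 9.14 and 7.95 TPM in MC38-P, 21.9, 21.0 and 23.5 TPM in MC38-LM3a, and 28.0, 28.9 and 29.1 TPM in MC38-LM3b. The 3 lines did not overlap, with MC38-LM3b above MC38-LM3a and both far above MC38-P. The mean was 2.52 times that of MC38-P in MC38-LM3a (log2 difference 1.24, SE 0.09, adjusted p = 7.25e-06) and 3.26 times in MC38-LM3b (1.60, SE 0.09, adjusted p = 9.28e-07). Vcam1 was the only one of the 9 genes whose absolute log2 difference also exceeded 1, a threshold passed by 2.89% of all tested genes in MC38-LM3a and by 3.93% in MC38-LM3b. Corrected for GC content and length, the differences were 1.22 (adjusted p = 1.54e-07) and 1.34 (adjusted p = 6.51e-08), and leaving out replicate 3 of MC38-LM3a and of MC38-P gave 1.14 and 1.54. Of 9 endothelial markers 7 were listed, and Pecam1 did not exceed 0.25 TPM, Kdr 0.38 TPM, Vwf 0.23 TPM and Cdh5 1.39 TPM in any library, with Tek at 0 in all MC38-LM3b libraries. The summed endothelial list was 7.03 to 9.10 TPM in MC38-P, 14.7 to 22.8 TPM in MC38-LM3a and 23.0 to 25.1 TPM in MC38-LM3b, of which Sele, itself an NF-kB target, made up the most. The leukocyte marker Ptprc did not exceed 0.09 TPM and Csf1r 0.14 TPM, while the summed list of 8 listed myeloid genes, led by Cd68, was 39.4 to 41.0 TPM in MC38-P, 49.3 to 54.2 TPM in MC38-LM3a and 56.1 to 60.5 TPM in MC38-LM3b. The summed stellate cell and fibroblast list, 7 of 9 genes listed, was lower in the derivatives, at 135 to 172 TPM in MC38-P, 54.1 to 72.7 TPM in MC38-LM3a and 65.4 to 72.3 TPM in MC38-LM3b, and most of it was Col3a1. Its members did not move together: Pdgfrb, a marker of stellate cells and pericytes, was at 1.15 to 1.74 TPM in MC38-P, 1.69 to 2.42 TPM in MC38-LM3a and 3.48 TPM or more in MC38-LM3b. The part of these lists in the Vcam1 difference was not tested.

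Icam1, the partner adhesion molecule that binds the integrin LFA-1, was near 0 in all lines. It was listed at 0.04, 0.04 and 0.07 TPM in MC38-P, at 0, 0.04 and 0.09 TPM in MC38-LM3a, and at 0, 0 and 0.04 TPM in MC38-LM3b. The values overlapped and were not tested. As TPM keep no read depth, a 0 shows only how the gene was listed. The 2 adhesion molecules thus lay far apart, with Vcam1 at 7.95 TPM or more and Icam1 at 0.09 TPM or less in every library.

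**Figure D3:**
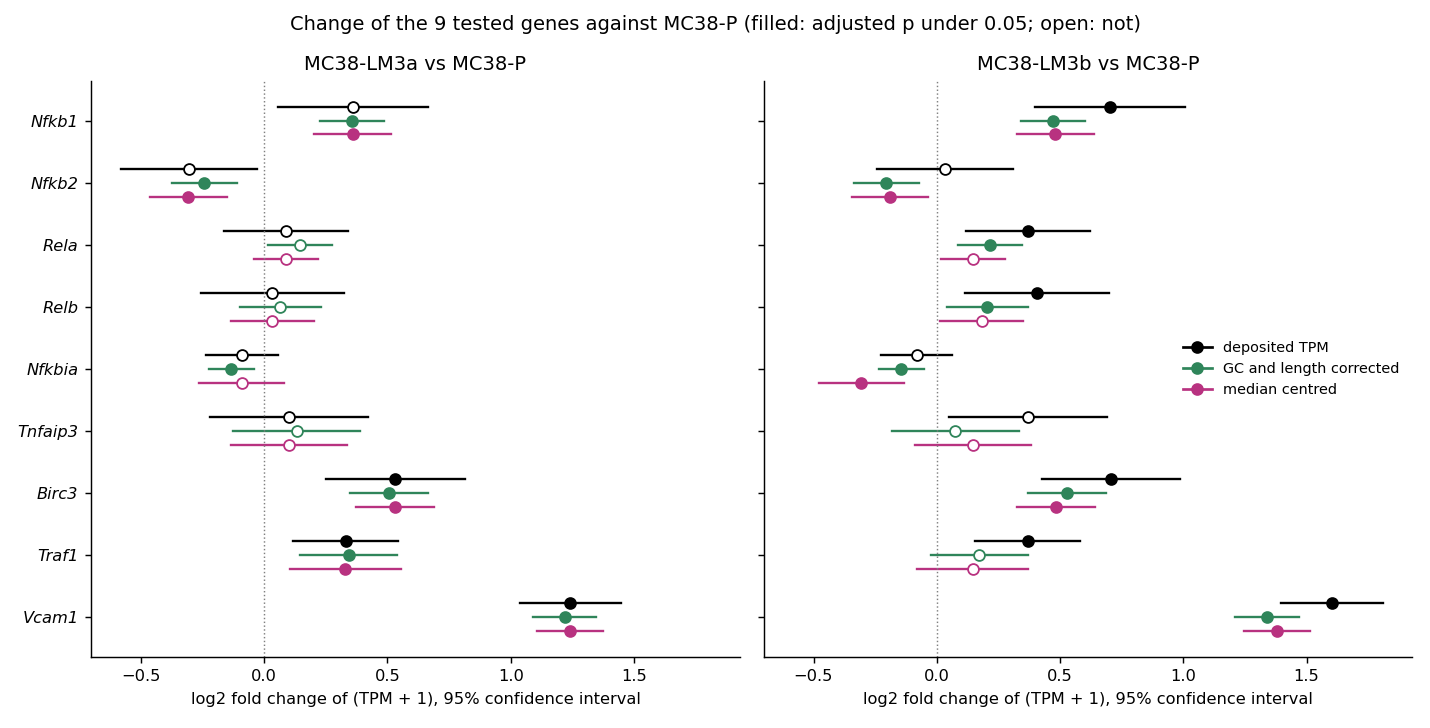
Log2 fold change of TPM + 1 (horizontal axis) against MC38-P for the 9 tested genes, with MC38-LM3a on the left and MC38-LM3b on the right. Points are estimates and lines 95% confidence intervals from limma, for deposited TPM, after the correction for GC content and length and after median centring, and filled points had an adjusted p under 0.05; Vcam1 lies at 1.24 and 1.60 on deposited TPM, while Nfkb2 and Nfkbia lie at or below 0.03.

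On the corrected scale, in which the median over all genes was 0.00 for MC38-LM3a and 0.01 for MC38-LM3b, some of the 9 genes were called higher, some lower and the rest neither. In MC38-LM3a, 4 were called higher (Nfkb1, Birc3, Traf1 and Vcam1), where 26.1% of all genes were, and 2 lower (Nfkb2 and Nfkbia), where 24.9% were. In MC38-LM3b, 5 were called higher (Nfkb1, Rela, Relb, Birc3 and Vcam1), where 29.1% were, and 2 lower (Nfkb2 and Nfkbia), where 28.8% were. Median centring alone gave 3 higher in MC38-LM3b (Nfkb1, Birc3 and Vcam1), with 22.9% of all genes higher, and the same 2 lower, with 26.4% lower. Over all genes, those called higher in MC38-LM3b outnumbered those called lower on deposited TPM, and not after centring.

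Levels of different genes can be ordered within a line, as TPM are per length. In MC38-P the order of the means was Nfkb2 (72.3 ± 9.69 TPM, SD, n = 3), Nfkbia (62.1 ± 2.57), Nfkb1 (54.7 ± 8.54), Rela (50.2 ± 5.67), Relb (12.9 ± 1.10), Traf1 (10.2 ± 0.537), Birc3 (9.28 ± 1.45), Vcam1 (8.79 ± 0.727) and Tnfaip3 (1.84 ± 0.312). Over the 3 libraries, ranges overlapped between Nfkb2 and Nfkbia, Nfkbia and Nfkb1, Nfkb1 and Rela, Traf1 and Birc3, and Birc3 and Vcam1. Within each MC38-P library, Nfkb2 exceeded Nfkbia (ratio 1.04 to 1.29), and Nfkb1 lay below Nfkbia (0.759 to 0.950) and above Rela (1.03 to 1.12). The order of Traf1, Birc3 and Vcam1 changed between these libraries. In MC38-LM3b the order was Nfkb1 (89.0 ± 2.48), Nfkb2 (73.6 ± 2.86), Rela (64.9 ± 2.83), Nfkbia (58.6 ± 2.09), Vcam1 (28.7 ± 0.577), Relb (17.4 ± 1.42), Birc3 (15.7 ± 0.780), Traf1 (13.5 ± 0.586) and Tnfaip3 (2.67 ± 0.345), and only Relb and Birc3 overlapped. In MC38-LM3a, Nfkb1 (70.7 ± 13.7), Nfkb2 (58.5 ± 10.2), Nfkbia (58.3 ± 0.713) and Rela (53.5 ± 7.91) came first, followed by Vcam1 (22.1 ± 1.29), Birc3 (13.8 ± 1.53), Relb (13.3 ± 2.47), Traf1 (13.1 ± 0.834) and Tnfaip3 (2.06 ± 0.469). There the ranges of the first 4 overlapped from one neighbour to the next, as did those of Birc3, Relb and Traf1. Within each MC38-LM3a library, Nfkb1 nevertheless exceeded Nfkb2 (ratio 1.16 to 1.23). Vcam1 thus stood below Relb, Traf1 and Birc3 in MC38-P by its mean and above all 3 in every library of the derivatives.

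Between the derivatives, 0 of the 9 genes were called, where 0.0354% of all tested genes were called higher in MC38-LM3b and 0.0177% lower by limma. At an unadjusted p under 0.05 there were 5 of the 9, and 4296 of all 11287 tested genes. The log2 difference of MC38-LM3b from MC38-LM3a was 0.36 for Vcam1 (SE 0.09, adjusted p = 0.119), 0.34 for Nfkb1 and for Nfkb2 (adjusted p = 0.120 and 0.119), 0.37 for Relb (adjusted p = 0.119) and 0.28 for Rela (adjusted p = 0.120). Tnfaip3 (0.27), Birc3 (0.17), Traf1 (0.04) and Nfkbia (0.01) followed. The median over all tested genes was 0.21. Without replicate 3 of MC38-LM3a, 6 of the 9 genes were called higher in MC38-LM3b (Nfkb1, Nfkb2, Rela, Relb, Tnfaip3 and Vcam1), but so were 52.2% of all genes. Corrected for GC content and length, the Vcam1 difference was 0.12 (95% confidence interval -0.01 to 0.25, adjusted p = 0.248) and that of Nfkb1 0.11 (-0.02 to 0.24, adjusted p = 0.275).

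The other genes of the pathway were taken from lists by role, 120 genes in all, of which 115 were listed and 88 were tested. In MC38-LM3a, 20 of the 88 were called higher and 6 lower, beside 14.1% and 13.8% of all genes, and in MC38-LM3b 51 were higher and 4 lower, beside 35.6% and 11.2%. Their median log2 difference was 0.11 for MC38-LM3a, where all tested genes had 0.00, and 0.37 for MC38-LM3b, where all tested genes had 0.21. The genes named here were called in the same direction in both derivatives and had the largest mean differences of their list, up to 3 in each direction. Others were picked after their values were seen: Rel as the remaining family member, Tnfrsf1a, the IkB kinase subunits and Map3k14 as central components, and the ligands that were nearly absent.

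Rel, the gene of c-Rel and the remaining family member, was measured at 11.5, 10.4 and 7.17 TPM in MC38-P, at 6.38, 6.23 and 10.2 TPM in MC38-LM3a, and at 10.4, 10.6 and 10.5 TPM in MC38-LM3b. MC38-P overlapped both derivatives, while MC38-LM3b lay above MC38-LM3a without overlap, and the log2 difference from MC38-P was -0.32 (adjusted p = 0.255) in MC38-LM3a and 0.13 (adjusted p = 0.596) in MC38-LM3b, with values of -0.26 (adjusted p = 0.0101) and -0.17 after the correction for GC content and length. Among the 4 tested genes of the IkB family, MC38-LM3a had 2 lower and MC38-LM3b had 1 lower, beside 13.8% and 11.2% of all genes. Neither had any higher, beside 14.1% and 35.6%. Bcl3, a nuclear IkB protein that binds p50 and p52 homodimers, was at 8.52, 8.83 and 6.66 TPM in MC38-P, at 4.20, 3.98 and 3.84 TPM in MC38-LM3a, and at 5.46, 6.12 and 6.53 TPM in MC38-LM3b. It fell in both derivatives, by 0.84 on the log2 scale in MC38-LM3a (adjusted p = 6.91e-04) and by 0.35 in MC38-LM3b (adjusted p = 0.0406).

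Of 12 ligand genes 9 were listed in the libraries and 3 were tested. All 3 were called higher in both comparisons, beside 14.1% of all genes in MC38-LM3a and 35.6% in MC38-LM3b. Tnfsf12, the cytokine TWEAK, was at 2.97 to 4.29 TPM in MC38-P, 6.75 to 7.89 TPM in MC38-LM3a and 7.83 to 9.50 TPM in MC38-LM3b, log2 differences of 0.83 (adjusted p = 0.00123) and 1.05 (adjusted p = 2.10e-04). Il18 differed by 0.77 (adjusted p = 0.00766) and 0.56 (adjusted p = 0.0227). The alarmin Il33 differed by 0.66 (adjusted p = 0.0214) and 0.91 (adjusted p = 0.00269), from levels of 0.40 to 1.00 TPM in MC38-P to at most 2.54 TPM. Il33 passed the filter through the derivative libraries, where it is higher, so its call adds no support to the count of ligands. Il1a, Il1b, Lta and Ltb, ligands of the interleukin-1 and lymphotoxin receptors, did not exceed 0.31 TPM in any library and were not tested.

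Among 11 tested receptors, MC38-LM3a had 3 higher and MC38-LM3b had 7 higher, beside 14.1% and 35.6% of all genes. Neither had any lower, beside 13.8% and 11.2%. Tlr2, a Toll-like receptor, did not pass (0.01, adjusted p = 0.969, and 0.24, adjusted p = 0.248). Tlr6, which pairs with TLR2, was at 0.33 to 0.40 TPM in MC38-P, 3.02 to 3.20 TPM in MC38-LM3a and 3.54 to 4.22 TPM in MC38-LM3b, log2 differences of 1.59 (adjusted p = 4.09e-06) and 1.80 (adjusted p = 1.19e-06). No MC38-P library reached 1 TPM, so that Tlr6 was tested only because of its level in the derivatives, and its call adds no support to the count of receptors. Tlr3, a receptor for double-stranded RNA, rose by 0.71 (adjusted p = 0.00399) and 1.13 (adjusted p = 1.67e-04), and Tlr4, the lipopolysaccharide receptor, by 0.44 (adjusted p = 0.0369) and 0.78 (adjusted p = 0.00135). The tumour necrosis factor receptor Tnfrsf1a differed by 0.00 (adjusted p = 0.980) in MC38-LM3a and 0.28 (adjusted p = 0.0326) in MC38-LM3b. The median over all tested genes in MC38-LM3b was 0.21.

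Among 32 tested adaptors and kinases, 6 were higher and 2 lower in MC38-LM3a, beside 14.1% and 13.8% of all genes. The counts for MC38-LM3b were 20 higher and 0 lower, beside 35.6% and 11.2%. Ikbke, an IkB kinase-related kinase, was at 3.57, 4.01 and 2.86 TPM in MC38-P, at 5.88, 6.66 and 9.39 TPM in MC38-LM3a, and at 10.7, 10.6 and 10.1 TPM in MC38-LM3b, log2 differences of 0.88 (adjusted p = 0.00229) and 1.36 (adjusted p = 1.11e-04). Ripk2, the kinase of NOD signalling, differed by 0.70 (adjusted p = 0.00176) and 0.84 (adjusted p = 4.20e-04), and Nod1, a sensor of bacterial peptidoglycan, by 0.44 (adjusted p = 0.0210) and 0.76 (adjusted p = 7.42e-04). The subunits of the IkB kinase complex did not pass in MC38-LM3a: the differences were -0.05 for Chuk, 0.17 for Ikbkb and -0.08 for Ikbkg. In MC38-LM3b they were 0.23 (adjusted p = 0.188), 0.41 (adjusted p = 0.0265) and 0.31 (adjusted p = 0.0408), beside a median of 0.21 over all tested genes. Map3k14, the kinase that starts the non-canonical branch, differed by -0.50 (adjusted p = 0.0560) and -0.22 (adjusted p = 0.319).

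Among 15 tested negative regulators, 3 were higher and 1 lower in MC38-LM3a, beside 14.1% and 13.8% of all genes. The counts for MC38-LM3b were 10 higher and 1 lower, beside 35.6% and 11.2%. Tank, an adaptor that limits TRAF signalling, rose by 0.46 (adjusted p = 0.0203) and 0.77 (adjusted p = 8.75e-04) on the log2 scale, Pdlim2, which promotes degradation of nuclear p65, by 0.56 (adjusted p = 0.00224) and 0.59 (adjusted p = 0.00112), and Rnf11, a partner of A20, by 0.31 (adjusted p = 0.00394) and 0.52 (adjusted p = 1.30e-04). Otulin, the deubiquitinase of linear ubiquitin chains, was at 79.7 to 84.5 TPM in MC38-P, 49.4 to 63.0 TPM in MC38-LM3a and 52.1 to 63.4 TPM in MC38-LM3b. It fell by 0.55 (adjusted p = 0.00205) and by 0.51 (adjusted p = 0.00217).

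Among 22 tested genes of the further induced targets, 5 were higher and 1 lower in MC38-LM3a, beside 14.1% and 13.8% of all genes. The counts for MC38-LM3b were 11 higher and 2 lower, beside 35.6% and 11.2%. Sele, the endothelial adhesion molecule E-selectin, was at 5.70, 7.30 and 5.69 TPM in MC38-P, at 13.5, 14.7 and 21.3 TPM in MC38-LM3a, and at 21.5, 23.5 and 22.9 TPM in MC38-LM3b. It rose by 1.25 (adjusted p = 2.58e-04) and 1.71 (adjusted p = 2.51e-05) on the log2 scale. The neutrophil chemokine Cxcl1 was at 5.08 to 5.50 TPM in MC38-P, 9.41 to 10.6 TPM in MC38-LM3a and 13.4 to 15.3 TPM in MC38-LM3b, differences of 0.82 (adjusted p = 2.38e-04) and 1.31 (adjusted p = 7.55e-06). Sdc4, the cell surface proteoglycan syndecan-4, differed by 0.50 (adjusted p = 0.00117) and 0.77 (adjusted p = 6.11e-05). Further members were picked after their values were seen. The monocyte chemokine Ccl2 was abundant, at up to 442 TPM, and rose by 0.56 (adjusted p = 7.67e-05) and 0.52 (adjusted p = 9.31e-05). Csf1, the macrophage growth factor, at up to 96.4 TPM, differed by 0.35 (adjusted p = 0.0508) and 0.68 (adjusted p = 0.00129), and Ptgs2, the cyclooxygenase COX-2, at up to 48.9 TPM, by -0.32 (adjusted p = 0.0809) and 0.09 (adjusted p = 0.541). The 13 listed genes of this list that were not tested, among them Il6, Cxcl2 and Nos2, reached at most 1.61 TPM, in Ccl5. Of the 17 genes named by this rule beside Rel, all kept direction and call in both derivatives after the correction for GC content and length. In MC38-LM3b the difference shrank by over 1.5 times for Rnf11 (0.28 after correction), Tlr4 (0.51) and Nod1 (0.50).

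**Figure D4:**
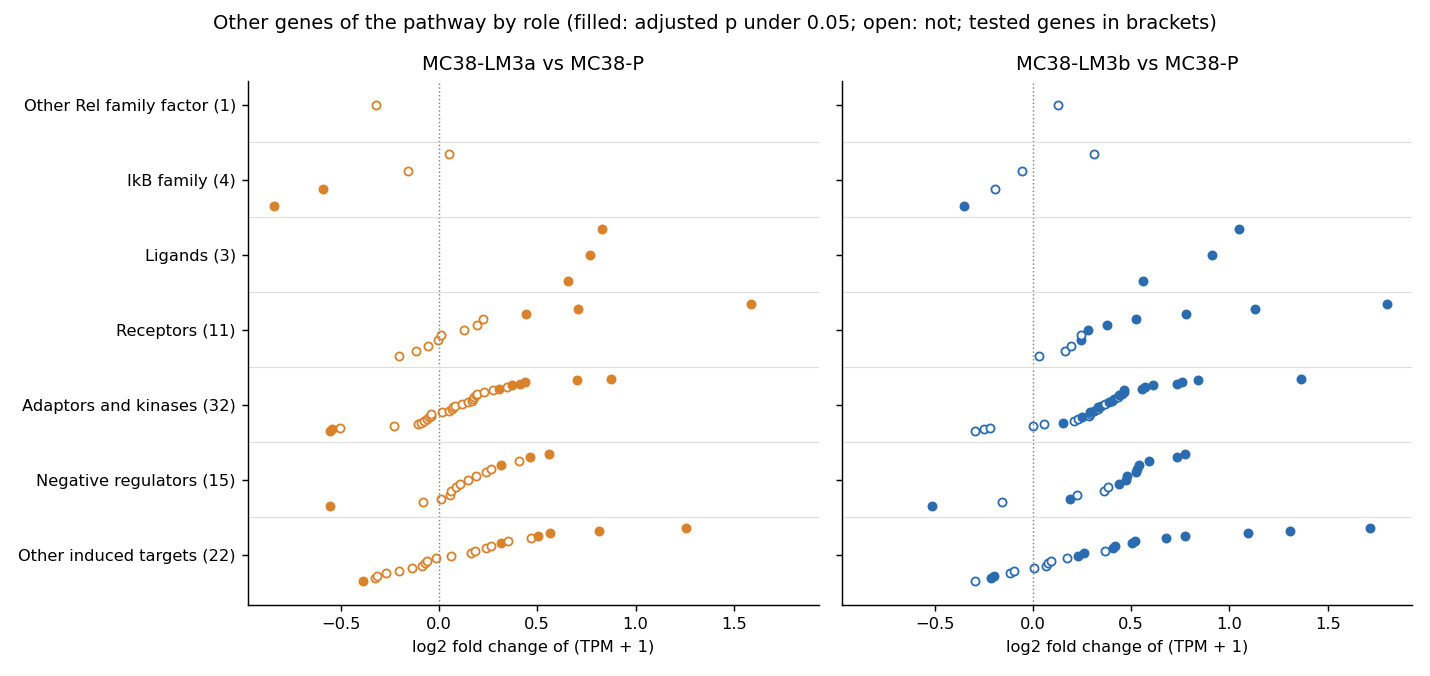
Log2 fold change of TPM + 1 (horizontal axis) against MC38-P for the 88 tested pathway genes other than the 10, in rows by role, for MC38-LM3a on the left and MC38-LM3b on the right. Each point is a gene, placed in rank order within its row, and filled points had an adjusted p under 0.05; Tlr6 at 1.59 and 1.80, which passed the filter only through the derivatives, and Sele at 1.25 and 1.71 lie farthest to the right.

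By Pearson correlation of log2(TPM + 1) over the 9 libraries, the genes most like Vcam1 were Gsn (r = 0.998), Manba (r = 0.998) and Naip2 (r = 0.997), those most like Birc3 were Klhl5 (0.995), Mmgt2 (0.991) and Fut4 (0.990), and those most like Traf1 were B3galt6 (0.976), Derl3 (0.974) and Ifi30 (0.973). Many genes shared these patterns: r was above 0.9 with Vcam1 for 1375 genes, with Birc3 for 1604 and with Traf1 for 472. The 9 libraries fall into lines, so that genes higher in both derivatives than in MC38-P tend to share a positive r. Among the 9 tested genes, Birc3 and Vcam1 were the most alike (r = 0.951), followed by Nfkb1 and Birc3 (r = 0.943), while Nfkb2 and Vcam1 had an r of -0.10.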

How the data were processed

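Poly(A) RNA from cultures of the 3 lines was sequenced in 9 libraries. The values deposited by the authors were TPM per gene, and per the labels' processing notes HISAT and GRCm39 were used, without a stated role. TPM keep no read depth, so the depth and its precision are unknown. The authors named 3 biological replicates per line. Genes at 1 TPM or more in at least 3 libraries (11287 of 16399) were tested on log2(TPM + 1), which understates changes of low genes, with limma 3.58.1 in R 4.3.3, with 1 fit over all libraries, trended variances and Benjamini-Hochberg adjustment over all tested genes; an adjusted p under 0.05 was a call. The fit was tested on simulated data with independent noise, which lacked the shared trend along transcript length seen in these libraries. The correction was tested separately on a simulated length trend. Loess (span 0.3) on GC content and on the length of the longest GENCODE M21 transcript, available for 98.3% of tested genes, gave the corrected values; the longest transcript was chosen after the data were seen. Alternatives were the pseudocount, filter, groups fitted, replicate block, scaling and omitted libraries. The members and gene lists were chosen with earlier results of these data known. Pathway genes were named when called in the same direction in both derivatives, up to 3 per list and direction by mean difference. The genes most alike were named for members called in both. Promoter windows, with their coordinates, and the order of neighbouring genes were from RefSeq, GRCm38.p6, which is not the build of the deposited values.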

Additional observations from a re-analysis of the deposited data

How the results depend on the processing

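The differences of the 9 tested genes and of the pathway genes named by rule, and the counts of calls, were recomputed under 20 further settings (19 for Tnfaip3, which a filter of 5 TPM removes), and the counts also under an additional threshold of 1 on the absolute log2 difference. Counts over the pathway lists and values of neighbouring genes were not recomputed. Vcam1 and Birc3 were called in both derivatives in all 20, at 1.14 to 1.32 and 0.33 to 0.62 in MC38-LM3a and at 1.34 to 1.70 and 0.45 to 0.79 in MC38-LM3b, and Nfkb1 was called in MC38-LM3b in all 20 (0.47 to 0.79). The call of Traf1 in MC38-LM3a was kept in 13 and lost with 2 groups fitted, with the replicate block, and without MC38-P replicate 1 or 2, MC38-LM3a replicate 1, or MC38-LM3b replicate 2 or 3. In MC38-LM3b, Rela kept its call in 15, Relb in 13 and Traf1 in 15. Rela lost it with the block, median centring, and without MC38-P replicate 3 or MC38-LM3b replicate 1 or 2. Relb lost it with the block, median centring, quantile normalization, and without MC38-P replicate 2 or 3 or MC38-LM3b replicate 1 or 3. Traf1 lost it with both corrected fits, median centring, quantile normalization, and without MC38-LM3b replicate 2.

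Of the 9 genes, 1 was called higher past the threshold of 1 in each derivative, and median centring gave 3 higher in MC38-LM3b. Those called lower in MC38-LM3a numbered 2 after the GC and length correction, with or without the block, 1 after median centring, 1 after quantile normalization, 0 to 1 when single libraries were left out (1 without MC38-P replicate 3 or MC38-LM3a replicate 3), and 2 without both. In MC38-LM3b they numbered 2, 2, 2 (median centring), 1 (quantile) and 1 (without both). Between the derivatives, 0 to 6 were higher when single libraries were left out, the 6 without MC38-LM3a replicate 3, and 7 without both. Over all genes, calls in MC38-LM3a numbered 3160, against 2105 with 2 groups fitted, 5654 after correction, 5242 with correction and block, 326 past the threshold of 1, 2083 (without MC38-P replicate 2) to 4211 when single libraries were left out, and 7111 without both. In MC38-LM3b they numbered 5276, and 444 past the threshold of 1. Between the derivatives they numbered 6, against 2 (pseudocount 0.1), 2 (5 TPM), 3 (2 groups), 2 (block), 23 (correction), 12 (median centring), 10 (quantile), 3 (threshold of 1), 0 to 6351 when single libraries were left out (0 without MC38-LM3b replicate 1 or 3, 6351 without MC38-LM3a replicate 3) and 8025 without both. The cause was not tested.

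Signs turned only for values that were not called on deposited TPM. In MC38-LM3a, Rela gave -0.0037 without MC38-P replicate 3 and -0.021 to 0.19 over the single libraries left out, Relb gave -0.034 without MC38-P replicate 3 and -0.10 to 0.11, and Tnfaip3 gave -0.016 to 0.20, the lowest each time without MC38-LM3a replicate 3. Without both libraries these were -0.11, -0.17 and -0.039. In MC38-LM3b, Nfkb2 gave -0.20 after correction with or without the block, -0.19 after median centring, -0.12 after quantile normalization, -0.072 (without MC38-P replicate 3) to 0.12 over the single libraries left out, and -0.072 without both, and Rel gave -0.17, -0.095, -0.15, -0.054 to 0.25 and -0.054 in the same order. Between the derivatives, Nfkbia gave -0.011 after correction with or without the block, -0.21 after median centring, -0.17 after quantile normalization, and -0.016 to 0.034 over the single libraries left out, with -7.6e-05 without MC38-LM3a replicate 2. Traf1 gave -0.17, -0.18, -0.22 and -0.011 to 0.070 in that order. Tnfaip3 gave -0.057 after correction with or without the block, and Birc3 -0.049 after median centring and -0.073 after quantile normalization.

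Deviations from the group means were correlated between libraries of equal replicate number. The values were -0.336, -0.165 and -0.662 between MC38-P and MC38-LM3a, 0.064, 0.058 and 0.035 between MC38-P and MC38-LM3b, and 0.057, 0.075 and 0.068 between the derivatives. For unequal numbers they ran from -0.464 to 0.545, from -0.054 to 0.007 and from -0.063 to -4.4e-04 in the same order. With MC38-LM3b, equal numbers thus gave the higher values, all of them small. Whether the numbers mark paired libraries is not known. With the replicate block, 2 of the 9 genes were called higher in MC38-LM3a and 4 were in MC38-LM3b, with 2200 and 3891 calls over all genes and 2 between the derivatives.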

Other observations

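Manba, which encodes the lysosomal enzyme beta-mannosidase and is the nearest tested gene on one side of Nfkb1 in the RefSeq order of GRCm38.p6, was looked at after its values were seen. It was measured at 8.07, 7.22 and 6.51 TPM in MC38-P, at 17.2, 17.7 and 19.5 TPM in MC38-LM3a, and at 22.1, 23.2 and 23.8 TPM in MC38-LM3b. The lines did not overlap, and the log2 difference from MC38-P was 1.21 (SE 0.10, adjusted p = 1.77e-05) in MC38-LM3a and 1.54 (adjusted p = 2.31e-06) in MC38-LM3b, larger than the 0.36 and 0.70 of Nfkb1 itself. Ppp3ca, the calcineurin subunit gene on the other side of Nfkb1, differed by 0.05 (adjusted p = 0.822) and 0.23 (adjusted p = 0.143). Birc2, the paralog of Birc3 that lies beside it, differed by 0.05 (adjusted p = 0.857) and 0.43 (adjusted p = 0.0553), against 0.53 and 0.71 for Birc3. Beside Vcam1, Extl2 differed by 0.18 and 0.31 and Cdc14a by -0.09 and 0.20.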
